A study of Mus musculus with 68 samples.

Results

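In all, 10 genes of glucose uptake and glycolysis were followed through the response of mouse cells to endoplasmic reticulum (ER) stress. They were taken by name: Slc2a1, Txnip, Hk1, Hk2, Pfkp, Aldoa, Pgk1, Pkm, Ldha and Pdk1. All 10 were present among the 13197 genes of the founder strain tables and the 12803 genes of the F1 tables. The cells were primary mouse embryonic fibroblasts (MEFs), which are connective tissue cells grown from embryos, and RNA sequencing gave 1 library per culture well. The question addressed by the design was how far genetic background changes the transcript response to tunicamycin (TM), a drug that blocks N-linked glycosylation and so causes misfolded proteins to build up in the ER. Treated wells received 2 ug/ml of TM during 4 h, and control wells 0.1% DMSO over the same time.

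The 8 founder strains were 129S1Sv/ImJ (129), A/J (A), C57BL/6J (B6), CAST/EiJ (CAST), NOD/ShiLtJ (NOD), NZO/H1LtJ (NZO), PWK/PhJ (PWK) and WSB/EiJ (WSB). The 5 F1 crosses, all with a B6 mother, had a father of strain 129 (x129), CAST (xCAST), NOD (xNOD), NZO (xNZO) or WSB (xWSB). Strains A and PWK contributed 3 libraries to each treatment, strains B6 and CAST 2 libraries to each, and the other founders 3 TM libraries against 2 controls. Crosses x129, xNZO and xWSB contributed 3 libraries to each treatment, cross xCAST 2 controls and 3 TM libraries, and cross xNOD 3 controls and 2 TM libraries. According to the methods, each MEF line pooled cells of several female littermates, so the libraries of a genotype are wells of 1 line and their spread may be largely technical. A difference between strains or crosses, in level or in response, thus cannot be told apart from a difference between lines. The authors also removed libraries that did not group with their own condition, and the spread reported here is that of the 68 libraries kept. In RNA from whole wells, fewer cells of a type and less RNA per cell cannot be told apart.

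Glucose enters fibroblasts mainly through the transporter GLUT1, the product of Slc2a1, and Txnip encodes an arrestin-like protein that promotes the removal of GLUT1 from the cell surface and binds thioredoxin. Hexokinases (Hk1, Hk2) trap glucose as glucose 6-phosphate, and phosphofructokinase (Pfkp), aldolase (Aldoa), phosphoglycerate kinase (Pgk1) and pyruvate kinase (Pkm) carry it on to pyruvate. Lactate dehydrogenase (Ldha) turns pyruvate into lactate, whereas pyruvate dehydrogenase kinase 1 (Pdk1) restrains its entry into mitochondria. Many of these genes are known targets of hypoxia-inducible factors, and Txnip is also known as a gene induced by ER stress and by glucose itself.

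With TM, 3 members rose, 2 fell and 5 did not pass the test on average over the 8 founder strains, and in the 5 F1 crosses 4 rose, 2 fell and 4 did not pass. Txnip rose most, 2.13 fold in founders and 1.81 fold in crosses. Hk2 and Slc2a1 rose by less in both sets, the Slc2a1 calls being lost with the replicate number as a block, and Hk1 and Aldoa fell in both sets. Pgk1 passed in the crosses and not in founders (average log2 change 0.27 with adjusted p = 0.000282, against 0.17 with adjusted p = 0.0544 in founders), and the difference between the sets was not tested. The call for these averages was an adjusted p below 0.01 (limma, Benjamini-Hochberg over all genes of the set). By that rule 20.5% of all genes were called higher and 21.9% lower in founders, and 16.9% higher and 18.7% lower in crosses, so a call by itself was common. Of the members, 1 of 10 (Txnip) was also past 1.5 fold in each set, where 6.04% of all founder genes were called higher and 5.41% lower, and 4.95% and 5.54% of all F1 genes. The median log2 change of the members was -0.13 in founders and -0.11 in crosses, beside -0.04 over all genes in both sets. With median-of-ratios scaling of the founder values, 3 members were called higher and 4 lower, since Pkm and Pfkp then passed.

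The values are normalized signal, in effect reads on a gene scaled by library as the authors did, and are not divided by gene length. The 2 sets were scaled separately, so their levels stand side by side without a test between them. Library depth, recovered for 66 libraries, ran from 6442976 to 29528457 reads on genes, and counting error is small for every member but Pdk1, which rested on 9 to 114 reads per library. All 5 targets of the unfolded protein response taken as a check of the treatment (Hspa5, Ddit3, Herpud1, Atf4 and Xbp1) rose in both sets, with a median log2 change of 2.82 in founders and 2.90 in crosses. As a check of the fibroblast label, the summed signals of 10 fibroblast markers were 16941 to 54704 in founders, against at most 64.6 for 8 myeloid markers. In crosses the fibroblast sums ran from 13112 to 34004 and those of 4 listed myeloid markers reached 22.0. Sums over endothelial markers reached 19.9, over epithelial markers 132 and over muscle markers 357. In founder controls Col1a1, Fn1, Col1a2 and Vim had the highest single values of the fibroblast list, so its sum says little of the others. The highest values of Lum, Pdgfra and Dcn there were below those of the muscle markers Des and Tnnt2 and the epithelial marker Krt19. Those of Col3a1, Pdgfrb and Thy1 were above them. Epcam, Myod1, Myog, Acta1 and Ckm were listed but not found by name among the genes of either set. With TM, 4 of 10 fibroblast, 3 of 8 myeloid and 1 of 3 muscle markers fell in founders, and 3 of 10 fibroblast and 2 of 4 myeloid markers fell in crosses, where 1 of 3 muscle markers rose. No endothelial or epithelial marker passed in either set. Their part in the results on glycolytic genes was not tested.

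Divided by the length of all annotated exons of each gene, the members spanned a wide range in founder controls. Pkm had the highest median, 606 per kilobase, and Ldha (335), Aldoa (320.3) and Pgk1 (316) followed. Slc2a1 stood at 61.5 per kilobase, Hk2 at 20.6, Hk1 at 18.4, Txnip at 17.6 and Pfkp at 6.23, and Pdk1 was lowest at 0.268. The lengths count every annotated exon, as with 13401 bases for Pfkp and 8532 for Hk1, and the transcripts expressed may be shorter. The order of these genes therefore depends in part on the annotation. The hexokinases and Txnip were thus measured at a small part of the level of the lower glycolytic genes on this scale.

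Because Txnip, Hk2 and Slc2a1 rose in both sets while Hk1 fell, the promoters of these 4 genes are shown. Aldoa also fell in both sets, and its windows are not shown. The windows run from 250 bases before to 50 bases after a RefSeq transcription start in GRCm38.p6, which is the C57BL/6J reference, so strain differences are not seen. They lie at chr3:96557707-96558006 on the plus strand, chr6:82774405-82774704 on the minus strand and chr4:119108495-119108794 on the plus strand, and the pair of Hk1 starts at chr10:62379859-62380158 on the minus strand and chr10:62340372-62340671 on the minus strand. Capitals mark ACGTG (the core of a hypoxia response element), CCAAT (a box bound by NF-Y), CCACG (which ends an ER stress response element) and TGATGNAA (a C/EBP-ATF response element) on either strand, and marked stretches may overlap.
Txnip: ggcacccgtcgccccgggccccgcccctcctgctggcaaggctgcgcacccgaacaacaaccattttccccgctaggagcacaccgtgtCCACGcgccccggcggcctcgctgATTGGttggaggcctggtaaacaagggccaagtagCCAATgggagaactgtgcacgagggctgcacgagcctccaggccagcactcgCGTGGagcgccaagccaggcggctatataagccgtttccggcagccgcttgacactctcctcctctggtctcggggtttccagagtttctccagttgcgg
Hk2: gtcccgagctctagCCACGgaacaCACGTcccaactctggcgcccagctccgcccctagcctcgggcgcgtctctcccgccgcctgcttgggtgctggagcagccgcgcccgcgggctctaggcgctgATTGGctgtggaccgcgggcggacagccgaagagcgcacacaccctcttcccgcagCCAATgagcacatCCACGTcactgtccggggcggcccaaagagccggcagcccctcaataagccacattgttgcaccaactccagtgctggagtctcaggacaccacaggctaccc
Slc2a1: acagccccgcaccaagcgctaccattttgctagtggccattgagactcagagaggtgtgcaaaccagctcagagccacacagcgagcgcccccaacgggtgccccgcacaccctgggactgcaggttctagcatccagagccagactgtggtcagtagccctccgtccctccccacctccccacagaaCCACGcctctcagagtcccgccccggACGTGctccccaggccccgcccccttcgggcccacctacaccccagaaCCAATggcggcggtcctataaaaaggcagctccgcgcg
Hk1, first start: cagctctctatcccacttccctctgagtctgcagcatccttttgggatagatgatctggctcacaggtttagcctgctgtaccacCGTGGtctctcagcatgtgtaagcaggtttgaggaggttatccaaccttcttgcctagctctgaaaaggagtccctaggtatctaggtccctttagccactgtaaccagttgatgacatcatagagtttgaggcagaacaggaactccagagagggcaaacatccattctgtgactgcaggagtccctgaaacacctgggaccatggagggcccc
Hk1, second start: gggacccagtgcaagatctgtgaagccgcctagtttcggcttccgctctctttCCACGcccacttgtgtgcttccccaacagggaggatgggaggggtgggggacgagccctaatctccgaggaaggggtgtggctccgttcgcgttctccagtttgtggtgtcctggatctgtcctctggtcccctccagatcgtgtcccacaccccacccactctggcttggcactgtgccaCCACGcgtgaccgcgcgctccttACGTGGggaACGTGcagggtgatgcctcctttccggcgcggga
The Txnip window held CCAAT 2 times and CCACG 2 times, and ACGTG 0 times. The Hk2 window held each of these motifs 2 times, and the Slc2a1 window each of them 1 time. No Hk1 window held CCAAT, and ACGTG was found in 1 of the 2. For Aldoa, the other member that fell in both sets, windows 2 and 3 held CCAAT. Over the 16 windows listed for the 10 members, ACGTG was in 8, CCAAT in 8 and CCACG in 10, while 19.62%, 37.41% and 32.77% of the 32851 mouse windows of the same length held them. Windows of 1 gene can overlap, as Aldoa windows 2 and 3 do, so that a site is counted in both. By gene, ACGTG was found for 7 of the 10 members, CCAAT for 7 and CCACG for 8. Neither TGATGNAA nor the full ER stress response element was in any member's window, and 3.97% and 0.12% of all windows held these. Such matches are a description of letters and were not related to the response.

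Txnip lies at chr3:96557957-96561883 on the plus strand (GRCm38), overlapped by Gm15441 on the other strand. Among founder controls its signal ran from 36.5 to 119 with a median of 55.1 over 18 libraries, and with TM from 57.6 to 266 with a median of 119 over 22 libraries. Within each of the 8 strains every TM library was above every control. How many of all genes separated in this way was not counted, so such separations, here and for the other members, are only a description. Groups of 2 or 3 libraries can separate without an effect of treatment, and the authors had removed libraries that did not group with their condition. In PWK the controls had 36.5, 39.6 and 39.2 and the TM libraries 105, 118 and 109.9. In NZO the controls had 114 and 119 and the TM libraries 242, 266 and 243. The PWK and NZO groups were well apart within each strain, and the untreated NZO libraries lay at about the level of the treated PWK libraries. In strain A the controls had 42.1, 51.3 and 55.4 and the TM libraries 119.9, 57.6 and 119.8, so TM replicate 2 of A reached barely above its controls.

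The average log2 change of Txnip in founders was 1.09 ± 0.07 (SE), or 2.13 fold, with adjusted p = 1.34e-13 (limma). The change was smallest in 129, at 1.60 fold, and largest in PWK, at 2.88 fold. A difference in response between strains was not detected (interaction adjusted p = 1). In the crosses, the controls ran from 38.5 to 91.0 with a median of 54.6, and the TM libraries from 56.4 to 144 with a median of 106. The average change was 0.86 ± 0.09 (SE), or 1.81 fold, with adjusted p = 9.13e-08 (limma). Treated and control libraries did not overlap in x129, xCAST and xNZO, and overlapped in xNOD, where the TM libraries had 56.4 and 101 against controls of 45.0, 53.8 and 70.5, and in xWSB. The interaction adjusted p over crosses was 0.79.

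Within single genotypes the call asked for 1.5 fold or more in addition to an adjusted p below 0.01. Txnip met it in 5 founder strains (B6, CAST, NOD, PWK and WSB) and 3 crosses (x129, xCAST and xNZO). In B6, CAST, NOD and WSB it was the only member called, where 8.25%, 3.01%, 1.62% and 7.05% of genes tested were called. In PWK it was called together with Slc2a1 and Hk2, where 10.7% of genes were called. In x129, xCAST and xNZO it was again the only member, beside 6.24%, 3.71% and 1.59% of genes. No member was called in 129, A, NZO, xNOD or xWSB, where 0.323%, 0.354%, 0.328%, 8.29% and 0.201% of genes were called. In NZO, the strain with the most Txnip, its change of 2.14 fold had adjusted p = 0.0134 (limma), and without NZO TM replicate 3 it was called with adjusted p = 2.33e-10. The call in NOD was lost without any 1 of the 3 NOD TM libraries (adjusted p = 0.0183, 0.0232 and 0.0167), and that in WSB without control 3, TM 1 or TM 2 (0.0301, 0.0106 and 0.0234). The calls in xCAST and xNZO were likewise lost without control 2, control 3 or TM 1 of xCAST (0.0269, 0.027 and 0.0142), and without control 1, TM 1, TM 2 or TM 3 of xNZO (0.0109, 0.0241, 0.0145 and 0.0212). Without a trend in the prior variance Txnip was not called in B6 (adjusted p = 0.0236), CAST (0.0174), NOD (0.0252), WSB (0.0416), xCAST (0.0133) or xNZO (0.0174). In WSB, Txnip was not called with edgeR (0.0135), a fit made without WSB TM 1, whose removal also ended the limma call. It was also not called in B6 in 1 fit over all founder libraries (0.02) or in xNZO with the replicate block (0.0133). Conversely, it was called in A (0.000483) and NZO (0.000366) in the fit over all founder libraries, and in 129 (4.1e-06) and NZO (0.00581) with the replicate block.

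**Figure D1:**
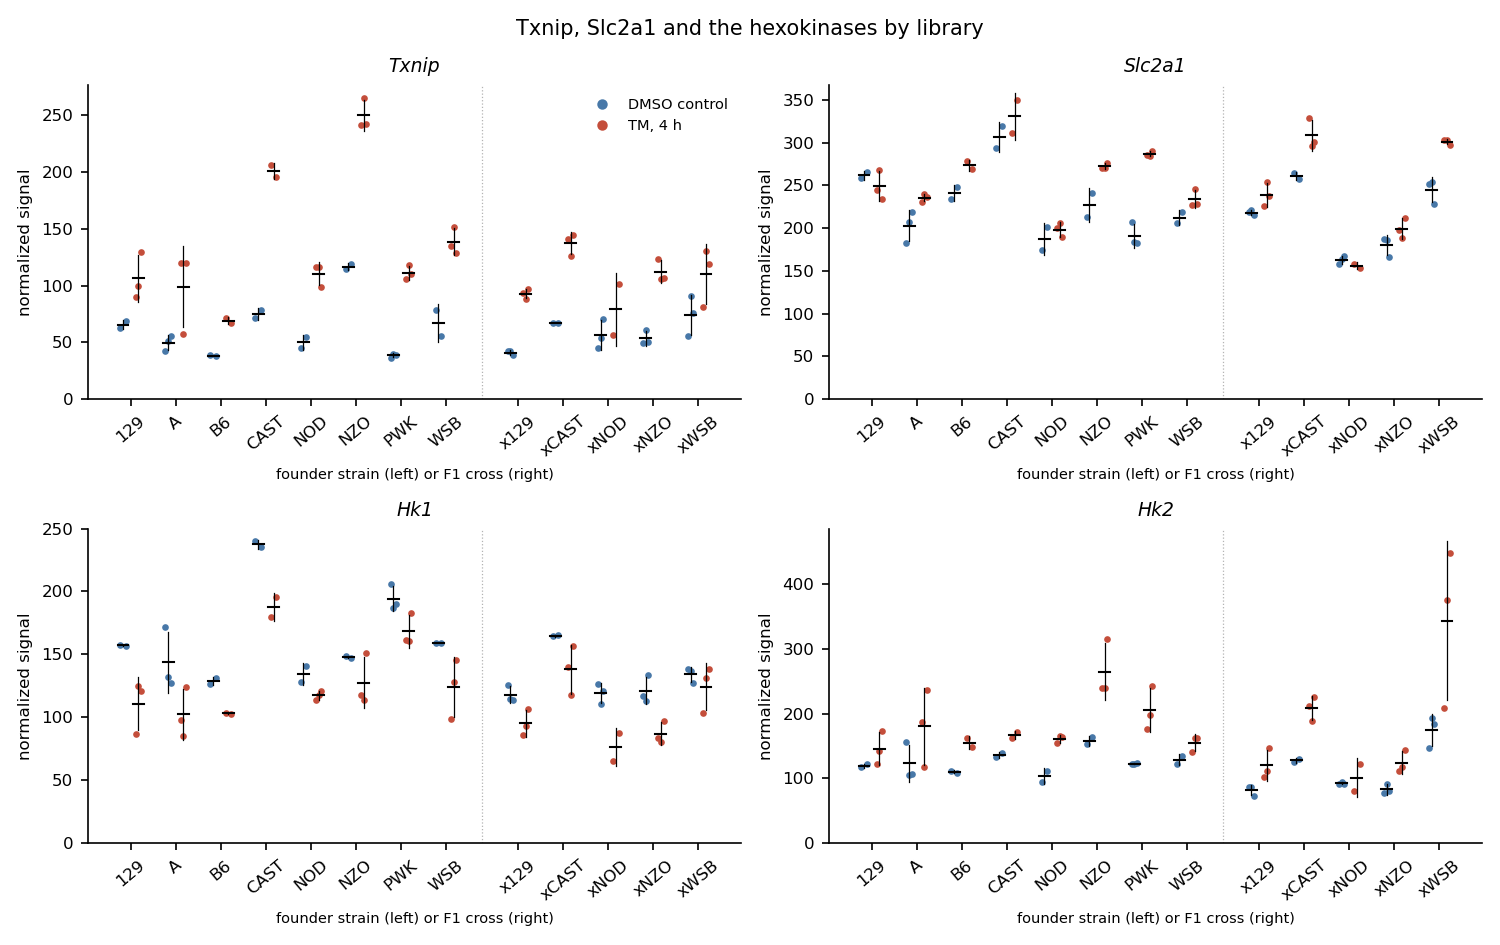
Normalized signal (y axes, from 0) of Txnip, Slc2a1, Hk1 and Hk2 in each of the 68 libraries, by founder strain and F1 cross (x axes), with DMSO controls in blue and TM libraries in red. Black bars are group means and thin lines 1 SD. In all 8 founder strains every red point for Txnip lies above the blue points.

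The untreated level of Txnip differed between strains (adjusted p = 1.96e-06 for control means, limma), a test that called 37.2% of all founder genes. With 1 line for each strain, this test cannot separate strain from line, for Txnip or for the members below. B6 (38.3 ± 0.682, SD, n = 2) and PWK (38.5 ± 1.67, n = 3) were lowest and overlapped each other. A, NOD, 129, WSB and CAST followed in that order of means, with A overlapping NOD, 129 overlapping WSB and WSB overlapping CAST. NZO was highest at 117 ± 3.26 (SD, n = 2), 3.05 fold above B6 and apart from CAST, its neighbour in the order. With TM, B6 stayed lowest at 69.2 ± 3.01 (n = 2), and WSB, CAST (201 ± 7.39, n = 2) and NZO (250 ± 13.5, n = 3) formed the top of the order, none of them overlapping its neighbours. In the crosses the control means ran from 41.0 in x129 to 73.9 in xWSB and did not pass the test (adjusted p = 0.0189), which called 24.8% of all F1 genes. They did pass without xNOD TM 1 (0.00631), xNOD TM 2 (0.00629), xWSB control 1 (0.00444) or xWSB TM 1 (0.00826). The cross xNZO, at 53.5 ± 6.54 (SD, n = 3), overlapped xNOD, its next higher neighbour.

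Over the 40 founder libraries, the genes whose log2 signal relative to the strain mean went most closely with that of Txnip were Stk40, Ets2, Fbxo42, Slc1a4 and Kank1, each with a Pearson r of 0.96 among 13197 genes. These libraries share the TM contrast, so the values describe likeness across 2 treatments and carry no test.

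Slc2a1, which encodes GLUT1, lies at chr4:119108711-119137983 on the plus strand, overlapped by Gm12868 on the other strand. Its controls ran from 174 to 319 in founders with a median of 216, and its TM libraries from 189 to 349.9 with a median of 257. TM and control libraries did not overlap in 5 of the 8 strains, and in 129 the TM libraries (245, 269 and 234) lay around the controls (258 and 266). The average log2 change was 0.19 ± 0.03 (SE), or 1.14 fold, with adjusted p = 2.96e-05 (limma). Among single genotypes it was called in PWK, with controls of 207, 183 and 183 and TM libraries of 286, 285 and 290.1, a change of 1.50 fold that lies at the threshold of 1.5 fold. Without PWK control 2, control 3 or TM 3 the log2 change was 0.56, 0.56 or 0.58, below that threshold, with adjusted p of 0.00227, 0.002 and 0.000209. The interaction over strains was not called (adjusted p = 0.247), where 0.174% of all genes were. When TM values were instead divided by the strain's own control median, as the study's methods describe, the strain difference for Slc2a1 passed with adjusted p = 0.00154, a test that treats the control medians as free of error. In the crosses Slc2a1 rose to 1.11 fold on average (log2 change 0.15 ± 0.04, SE, adjusted p = 0.00178), and xNOD held TM libraries of 159 and 153 against controls of 158, 164 and 167. With the replicate number as a block the average of Slc2a1 was not called in founders (adjusted p = 0.019) or in crosses (adjusted p = 0.0243). The F1 interaction adjusted p was 0.782, and 0.0547% of F1 genes passed that test.

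Control levels of Slc2a1 differed between strains (adjusted p = 4.83e-06, limma) and between crosses (adjusted p = 1.1e-06). In founders NOD was lowest (188 ± 18.9, SD, n = 2) and overlapped PWK, and each strain from PWK through A, WSB and NZO to B6 overlapped the next. The 129 controls (262 ± 5.13, n = 2) were above B6, and CAST (307 ± 17.7, n = 2) was above 129, both without overlap. In crosses the order from low to high was xNOD (163), xNZO (180.2), x129 (218), xWSB (245) and xCAST (261), and only xNOD and xNZO overlapped. NOD and CAST thus stood at the ends of the founder order, as xNOD and xCAST did among the crosses, with each set compared only within itself.

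The hexokinases changed in opposite directions on average. Hk1, the constitutive isoform, lies at chr10:62268855-62379908 on the minus strand, overlapped by Hk1os on the other strand, and Hk2, the isoform known for its regulation by growth signals and insulin, lies at chr6:82725025-82774454 on the minus strand. Hk1 in founder controls ran from 127 to 240.0 with a median of 157, and with TM from 84.9 to 195 with a median of 121. Every TM library was below every control in 7 of 8 strains, all but NZO, where TM replicate 3 (151) reached above the controls (149 and 147). The average log2 change was -0.34 ± 0.06 (SE), or 0.793 fold, with adjusted p = 1.3e-05 (limma). In crosses the controls ran from 111 to 165 (median 126) and the TM libraries from 65.4 to 157 (median 100.3). There the average change was -0.37 ± 0.06 (SE), or 0.776 fold, with adjusted p = 2.68e-05, without overlap in 4 of 5 crosses. Without xNOD TM replicate 2, which left 1 TM library, the log2 change of Hk1 within xNOD was -0.87.

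Hk2 in founder controls ran from 94.2 to 164 with a median of 123, and with TM from 118 to 316 with a median of 164. Every TM library was above every control in 7 of 8 strains. The exception was A, where TM replicate 2 (118) was below control 1 (156). The average log2 change was 0.49 ± 0.07 (SE), or 1.41 fold, with adjusted p = 5.5e-07 (limma). Among single genotypes Hk2 was called in PWK, where the controls were at 123, 123 and 123 and the TM libraries at 177, 197 and 243, a change of 1.66 fold. Hk2 was also called in NZO without TM 3 (adjusted p = 4.86e-07, limma) and in xCAST without TM 3 (0.000727). In NOD without control 3, which left 1 control, the log2 change of Hk2 was 0.77. In crosses the controls ran from 72.6 to 193 (median 91.5) and the TM libraries from 79.8 to 448 (median 146). The average change there was 0.57 ± 0.10 (SE), or 1.48 fold, with adjusted p = 4.04e-05. Cross xWSB had the highest Hk2 of the crosses, with controls of 146, 193 and 185 and TM libraries of 208, 375 and 448, and its change of 1.89 fold had adjusted p = 0.238. In 1 limma fit over all F1 libraries that change was called (adjusted p = 0.00421). In B6, Hk2 (1.41 fold, adjusted p = 0.00014) and Hk1 (0.801 fold, adjusted p = 0.00358) were past the threshold on p but not on fold.

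**Figure D2:**
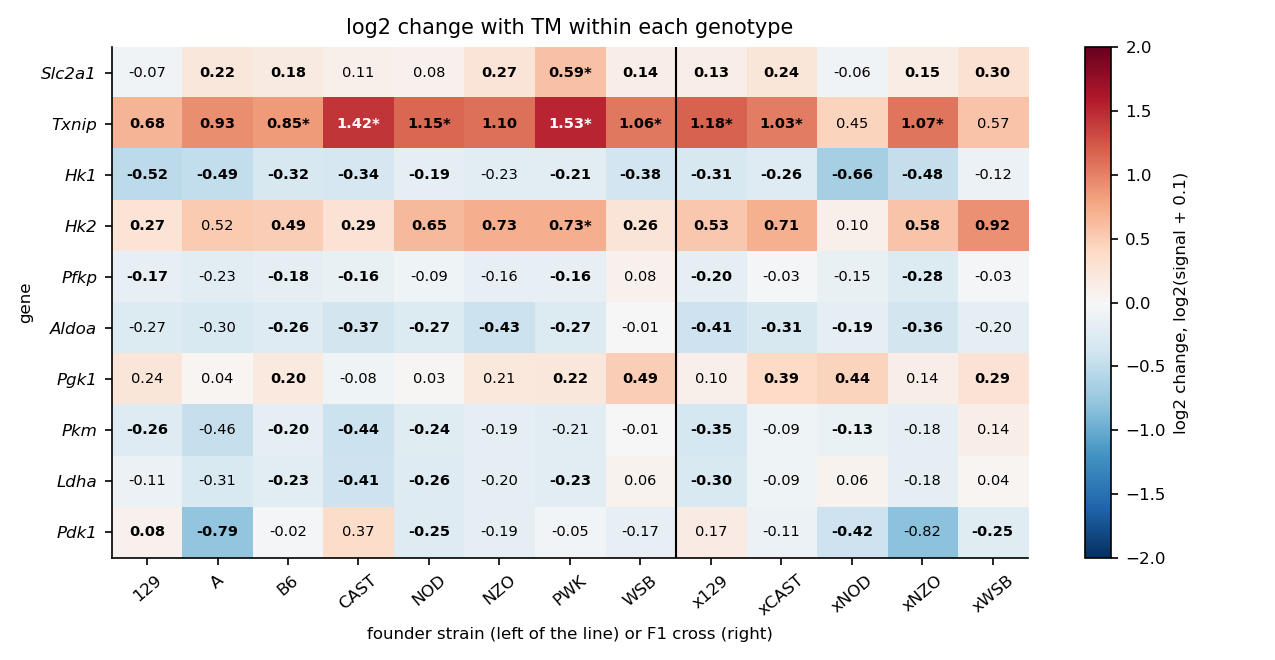
Mean log2 change with TM of each member (rows) within each founder strain and F1 cross (columns), on log2(signal + 0.1), in color and as numbers. Bold marks genotypes where treated and control libraries did not overlap and an asterisk a call at adjusted p below 0.01 and 1.5 fold. Txnip is positive in every column, from 0.45 in xNOD to 1.53 in PWK, and Hk1 is negative in every column.

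As both hexokinases are read in the same library, their ratio does not depend on how libraries were scaled. The signal of Hk2 divided by that of Hk1, a comparison made after the values were seen and given without a test, was higher in every TM library than in every control in 8 of 8 strains and 5 of 5 crosses. In founders the mean ratio ran from 0.573 in CAST to 1.07 in NZO among controls, and from 0.890 in CAST to 2.08 in NZO with TM. The TM ratio was 1.55 times the control ratio in CAST, the smallest rise, and 2.04 times in A, the largest. In A the ratios were 0.908, 0.802 and 0.846 in controls and 1.92, 1.39 and 1.90 with TM, so the libraries that overlapped for Hk2 alone were apart for the ratio. In crosses the TM ratio was between 1.70 times (xNOD) and 2.07 times (xWSB) that of controls. The ratio is one of read signals and was not corrected for transcript length, so a value of 1 does not mean equal transcript numbers. All annotated exons together cover 8532 bases for Hk1 and 5969 for Hk2. These need not be the lengths of the transcripts expressed here, so the direction of such a correction is not known from them.

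**Figure D3:**
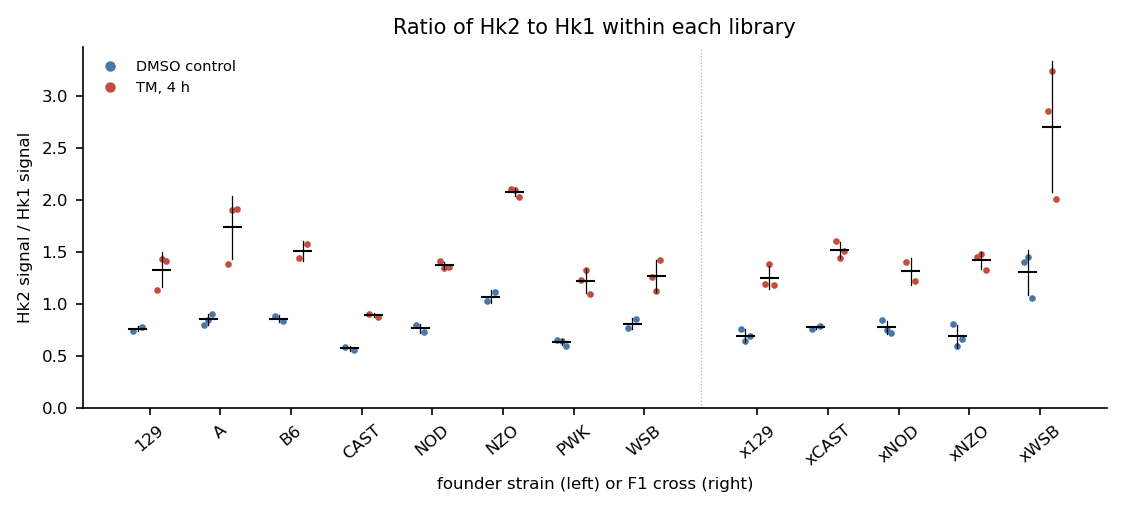
Signal of Hk2 divided by signal of Hk1 in each library (y axis, no unit, from 0) by genotype (x axis), controls in blue and TM in red, with group means as black bars and 1 SD as thin lines. In each of the 13 genotypes all red points lie above all blue points.

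Untreated Hk1 differed between founder strains (adjusted p = 0.000816, limma). B6 was lowest (129 ± 3.06, SD, n = 2) and overlapped NOD, which overlapped A, which overlapped NZO. From NZO upward no neighbours overlapped, and PWK (194 ± 10.1, n = 3) and CAST (238 ± 3.47, n = 2) were highest without overlap. Untreated Hk2 did not pass that test in founders (adjusted p = 0.255), with means from 103 in NOD to 158 in NZO. In crosses it was the other way round: Hk2 differed (adjusted p = 0.000448), with xCAST (128 ± 3.15, n = 2) and xWSB (175 ± 24.9, n = 3) above the rest, and Hk1 did not pass (adjusted p = 0.0508). Cross xCAST was highest for Hk1, at 165 ± 0.608 (n = 2).

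Pfkp, the platelet-type phosphofructokinase at chr13:6579768-6648777 on the minus strand, is overlapped by Pitrm1 on the other strand. It did not pass the test of TM in either set. Its average log2 change was -0.13 in founders (95% confidence interval -0.23 to -0.04, adjusted p = 0.0143, limma) and -0.14 in crosses (-0.26 to -0.02, adjusted p = 0.0451). Its level did differ between untreated strains (adjusted p = 2.37e-06) and untreated crosses (adjusted p = 0.000331). WSB had 130.3 and 144 in controls and 134, 145 and 158 with TM. No library of any other founder strain exceeded 118, the highest control of PWK. CAST was lowest with 72.4 and 66.7 in controls. Among cross controls xWSB was highest (82.3 ± 6.84, SD, n = 3) and xCAST lowest (46.8 ± 1.27, n = 2).

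Aldoa, the aldolase of muscle and most dividing cells, lies at chr7:126795234-126800751 on the minus strand, overlapped by Fam57b on the other strand. It fell in both sets. Founder controls ran from 807 to 1187 with a median of 932, and TM libraries from 624 to 1131 with a median of 779.8. The average log2 change was -0.27 ± 0.05 (SE), or 0.828 fold, with adjusted p = 3.52e-05 (limma). In NOD, controls of 942 and 955 stood against TM libraries of 779.6, 779.9 and 792. Every TM library was below every control in 5 of 8 strains, and the groups overlapped in 129, A and WSB, with a WSB change of 0.991 fold. In crosses Aldoa went from a control median of 785 to 622 with TM, an average of 0.815 fold (adjusted p = 0.000157), without overlap in 4 of 5 crosses.

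Pgk1, at chrX:106187100-106203699 on the plus strand, encodes the enzyme of the first ATP-yielding step. Founder controls ran from 588 to 1298 with a median of 708, and TM libraries from 629 to 1140.4 with a median of 819. The highest control was A control 1, with 1298 against 753 and 747 in the other A controls, and without it the founder average passed (log2 change 0.20, adjusted p = 0.00903, limma). In crosses controls ran from 495 to 652 (median 559) and TM libraries from 549 to 924 (median 678). The F1 average of 1.21 fold passed with adjusted p = 0.000282. In xNOD the controls had 550.1, 537 and 495 and the TM libraries 723 and 705, well apart.

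Pkm, at chr9:59656368-59679375 on the plus strand and overlapped by Gm49759 on the same strand, had the highest signal of the members. Founder controls ran from 2542 to 6900.4 with a median of 3029, and TM libraries from 2049.8 to 4111 with a median of 2549. Its average log2 change of -0.25 (95% confidence interval -0.42 to -0.08) missed the call narrowly in founders (adjusted p = 0.0113, limma). A control 1 had 6900.4 for Pkm, against 3533 and 3657 in the other A controls, and NZO TM replicate 3 had 4011, against 2251 and 2134 in the other NZO TM libraries. Ldha, at chr7:46841475-46855627 on the plus strand, stood high in the same libraries, with 1867 in A control 1 against 1121 and 1144, and 1262 in NZO TM replicate 3 against 756 and 754. Its founder average was -0.21 (-0.36 to -0.06, adjusted p = 0.0166).

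Several of these members crossed the threshold when libraries were left out. Without NZO TM replicate 3, Pkm, Ldha and Pfkp passed as lower in founders (adjusted p = 0.00128, 0.00256 and 0.00116), so that 5 members were lower in place of 2. Leaving out A control 1 and NZO TM replicate 3 together, a choice made after seeing the values, gave adjusted p = 0.000346 for Pkm, 0.00176 for Ldha, 0.000687 for Pfkp and 0.00722 for Pgk1, with 4 members higher and 5 lower. Pkm also passed without 129 TM 1 (adjusted p = 0.0091), A control 2 (0.00578), A control 3 (0.007), A TM 3 (0.00548) or WSB TM 3 (0.00703). Ldha passed without 129 TM 1 (0.00664) or A TM 2 (0.00942), and Pfkp without A TM 3 (0.0099). In crosses neither Pkm nor Ldha passed under any alternative tried, with average log2 changes of -0.12 (-0.29 to 0.04, adjusted p = 0.211) and -0.09 (-0.22 to 0.04, adjusted p = 0.224).

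**Figure D4:**
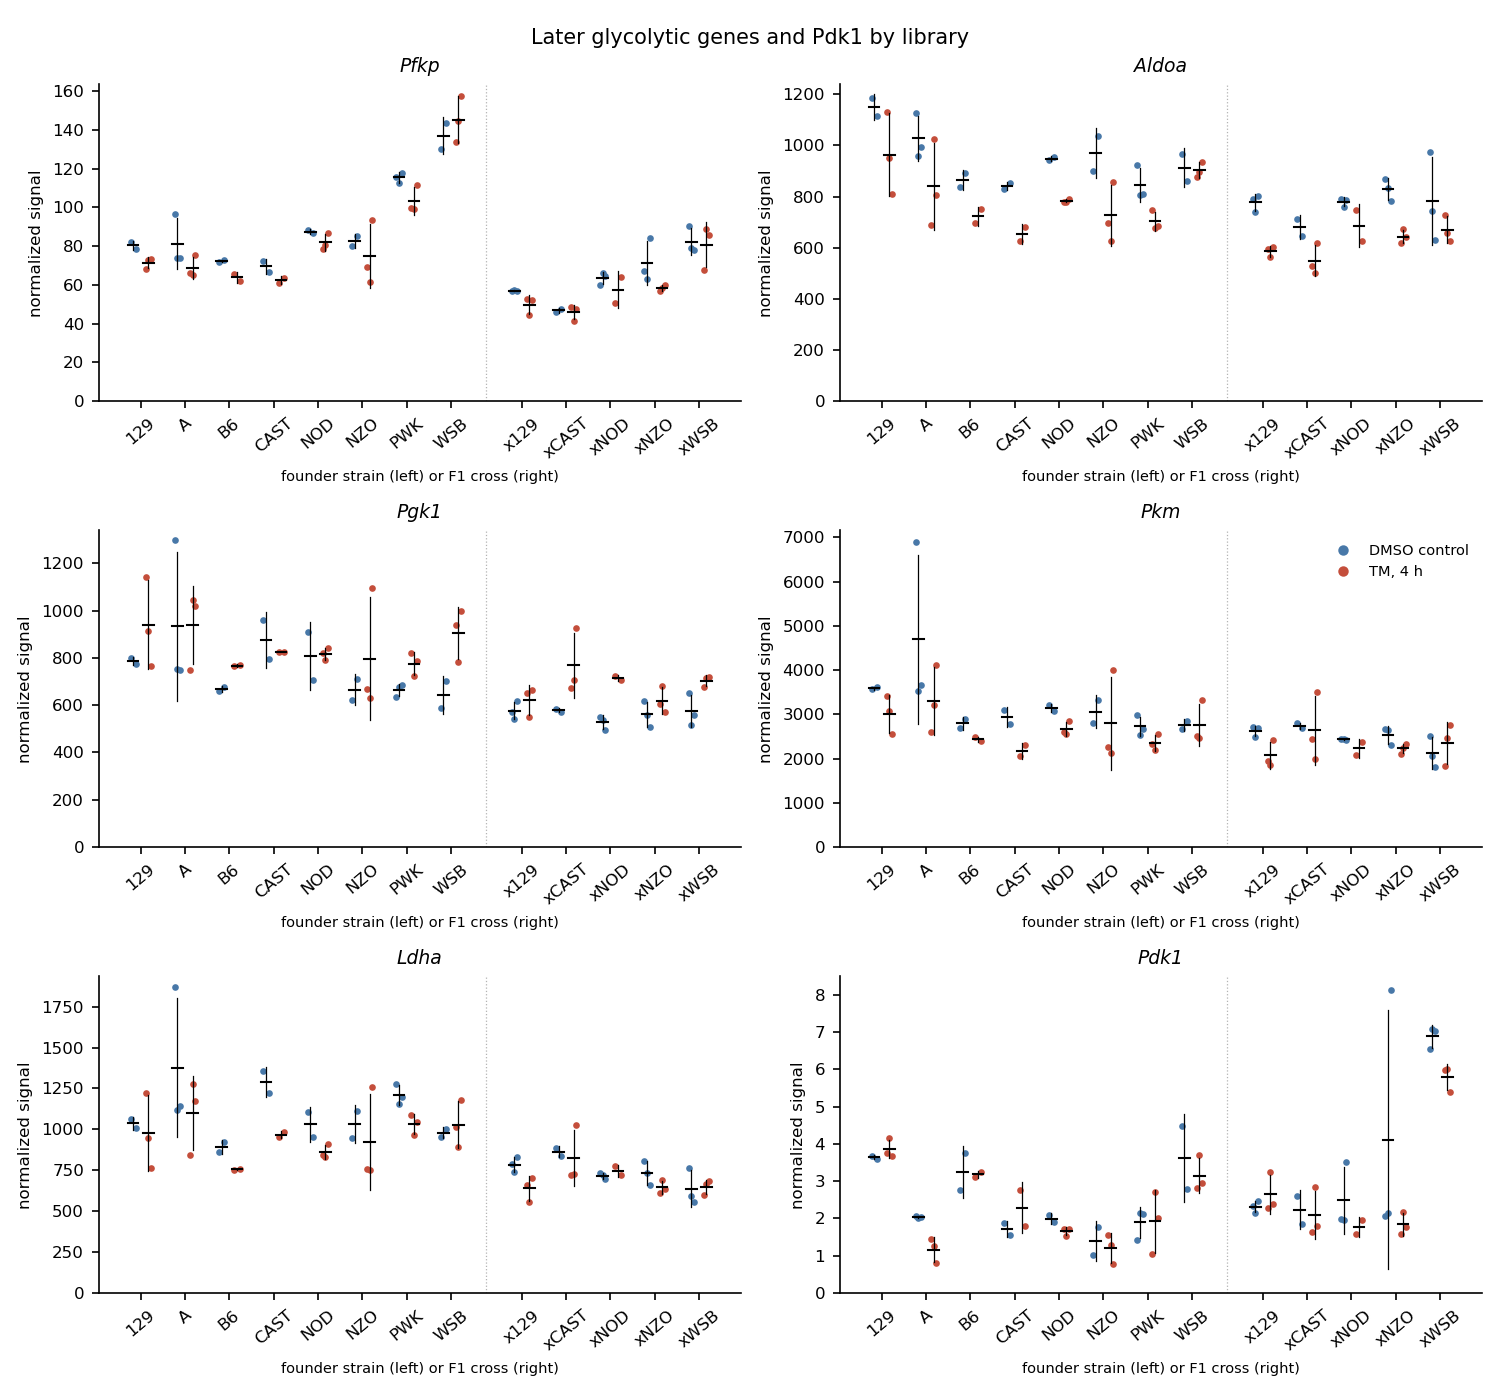
Normalized signal (y axes, from 0) of Pfkp, Aldoa, Pgk1, Pkm, Ldha and Pdk1 in each library by genotype (x axes), controls in blue and TM in red, with group means as black bars and 1 SD as thin lines. A control 1 stands high for Pgk1, Pkm and Ldha, NZO TM 3 is the highest NZO point for the same genes, and no Pdk1 value is above 8.11.

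Pdk1, at chr2:71873224-71903858 on the plus strand, was barely expressed. Founder signals ran from 1.01 to 4.47 in controls and from 0.777 to 4.15 with TM. The average log2 change was -0.13 (95% confidence interval -0.35 to 0.10, adjusted p = 0.342, limma) in founders and -0.29 (-0.62 to 0.05, adjusted p = 0.15) in crosses. In strain A, the controls (2.06, 2.00 and 2.04) were all above the TM libraries (1.44, 1.25 and 0.802), but that change had adjusted p = 0.345. Its control levels differed between strains (adjusted p = 0.00466) and between crosses (adjusted p = 0.00339). Cross xWSB held 6.53, 7.09 and 7.03 in controls, and the other F1 controls lay between 1.86 and 3.51 except for xNZO control 3 with 8.11. The founder call was lost without 129 control 2 (0.0138), 129 control 3 (0.013), B6 control 3 (0.0112), NZO control 2 (0.0181) or WSB control 2 (0.0134), and the F1 call without any 1 of the xWSB controls (0.0129, 0.0207 and 0.0188).

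**Figure D5:**
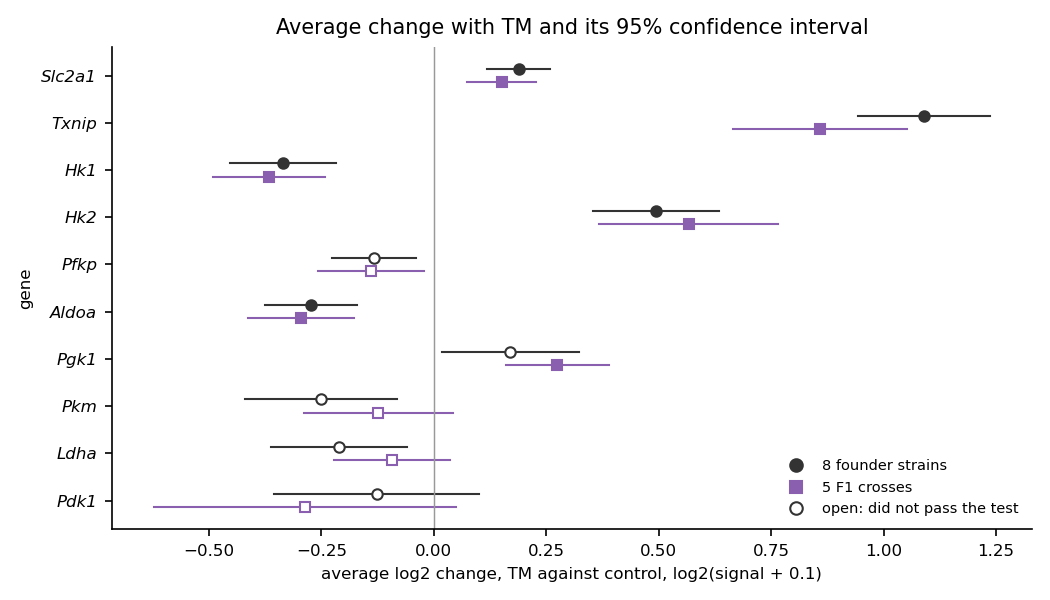
Average log2 change with TM (x axis, on log2(signal + 0.1)) of each member (y axis) over the 8 founder strains (circles) and the 5 F1 crosses (squares), with 95% confidence intervals as lines. Filled symbols passed adjusted p below 0.01. Txnip stands apart at 1.09 and 0.86, and Hk1 and Hk2 lie on opposite sides of 0.

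The other genes of these pathways were read from lists chosen by function, each described by its counts beside the shares of all genes given above. Of 13 other glycolytic enzymes, 9 fell and 0 rose in founders (median log2 change -0.28), and 6 fell and 0 rose in crosses (median -0.25). The 3 that fell most in founders were Pgam2 (phosphoglycerate mutase 2, -0.63), Aldoc (aldolase C, -0.60) and Pfkl (liver phosphofructokinase, -0.34). In crosses Pgam2 fell by 0.90, Aldoc had -1.38 with adjusted p = 0.0248 and Pfkl -0.17 with adjusted p = 0.0682. Pgam2 and Aldoc had founder control medians of only 2.45 and 1.25. Some of these enzymes and several members have processed pseudogenes elsewhere in the genome, and how reads shared with such copies were counted is not given in the sources used here.

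Of 14 sugar and lactate transporters, 2 rose and 3 fell in founders, and 3 rose and 4 fell in crosses. Slc2a6, a glucose transporter of internal membranes, rose most, from a founder control median of 2.23 to 12.5 with TM (log2 change 2.39, adjusted p = 2.63e-20, limma), and by 1.85 in crosses. The lactate transporters went apart, as Slc16a3 fell (-0.61 in founders and -0.47 in crosses) and Slc16a1 rose (0.43 and 0.42). Of 5 enzymes that make or break down fructose 2,6-bisphosphate, an activator of phosphofructokinase, 2 fell in each set. These were Pfkfb4 (-1.01 in founders and -1.05 in crosses) and Pfkfb3 (-0.52 and -0.74).

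Around Pdk1, of 12 genes of the pyruvate dehydrogenase complex, its regulators and the mitochondrial pyruvate carrier, 4 rose and 2 fell in founders, and 3 rose and 2 fell in crosses. Pdk4, a kinase that inactivates the complex as Pdk1 does, rose by 0.96 in founders and 0.76 in crosses. The phosphatase gene Pdp2, whose product reactivates it, fell by 0.99 and 0.97. Dld, the shared E3 subunit, rose by 0.77 and 0.70.

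Around Txnip, of 9 arrestin-domain relatives, regulators and partners, 4 rose and 2 fell in founders, and 2 rose and 2 fell in crosses. Arrdc4, a close relative of Txnip, rose by 0.92 in founders and 0.98 in crosses, Arrdc1 fell by 0.44 and 0.52, and Mlxip, which encodes the glucose-sensing factor MondoA, fell by 0.32 and 0.41. The genes beyond glycolysis followed their own counts. Of 8 genes listed for the hexosamine pathway, 5 rose in founders and 4 in crosses and none fell. The list holds enzymes that build UDP-N-acetylglucosamine from fructose 6-phosphate, and also Ogt and Mgea5, whose products attach N-acetylglucosamine to proteins and remove it. The risers were led by Gnpnat1 (1.10 and 1.03), a building enzyme, while Gfpt2 rose by 0.27 in founders and had 0.08 with adjusted p = 0.165 in crosses, and Mgea5, the removing enzyme, rose by 0.25 and 0.29. Of 8 pentose phosphate genes, 4 fell and 1 rose in both sets, and the 3 that fell most in founders were H6pd (-0.64 and -0.76), G6pdx (-0.48 and -0.56) and Tkt (-0.38 and -0.42).

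Of 13 genes of gluconeogenesis and glycogen, 4 rose and 3 fell in founders, and 2 rose and 1 fell in crosses. Pck2, the mitochondrial enzyme that makes phosphoenolpyruvate, rose by 0.73 and 0.72, Ugp2, which makes UDP-glucose, rose by 0.50 and 0.43, and Pcx fell by 0.57 in founders and had -0.46 with adjusted p = 0.0485 in crosses. Of 18 genes known from the hypoxia response but outside glycolysis, 5 rose and 5 fell in founders, and 4 rose and 3 fell in crosses. Car9 fell by 1.27 in founders and 1.14 in crosses and Adm by 0.72 and 0.89, whereas Ero1l, an oxidase of the ER that is also a target of the unfolded protein response, rose by 0.72 and 0.58. The median log2 change of the hypoxia list was 0.07 in founders and 0.04 in crosses, that of the hexosamine list 0.20 and 0.16, and that of the pentose phosphate list -0.26 and -0.12. The other medians were -0.06 and -0.15 for transporters, -0.09 and -0.42 for the fructose 2,6-bisphosphate enzymes, 0.08 and 0.07 around Pdk1, 0.16 and 0.10 around Txnip, and -0.16 and -0.23 for gluconeogenesis and glycogen, all beside -0.04 over all genes.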

How the data were processed

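RNA-seq libraries of MEFs from 8 founder strains (40 libraries) and 5 F1 crosses (28 libraries) were used as deposited. Per the methods, the authors aligned reads with TopHat 1.4.1 to strain-specific genomes (3 mismatches allowed) and scaled gene values with the TMM method of edgeR. The submitters' processing notes name GRCm38 and mm10 as builds and list Trimmomatic, whose use the methods describe for allele calls in the crosses and not for these gene values. The deposited values are named FPKM but were treated as normalized signal, scaled by library before deposit and not divided by length. The reason is that in all 68 libraries they are whole multiples of 1 step (100.0% of values, tolerance 0.1). PWK TM 2 and WSB TM 1 also met this measure, but reads were recovered only for the other 66 libraries. Both were left out of edgeR, and this measure does not show what set them apart. The F1 tables hold 3 rows that name no gene (18.3 to 21.9% of control and 15.5 to 24.1% of TM totals), which were left out.

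Genes that reached 0.5 in 2 or more libraries were tested on log2(signal + 0.1) with limma 3.58.1 in R 4.3.3 (trended prior variance, two-sided, Benjamini-Hochberg over all genes tested), with 1 fit for each set for averages, interactions and control levels, and 1 fit for each genotype. Fold changes on this scale understate the change of low genes. A call needed an adjusted p below 0.01, and also 1.5 fold within a genotype. Scripts were tested on simulated data. Counts recovered from the signal gave depths of 6442976 to 29528457 reads, and statements on depth cover counting error only. Alternatives were other scalings, pseudocounts, filters and thresholds, edgeR 4.0.16, the replicate block and leaving out each library. In xWSB all 3 same-numbered pairs deviated together (r 0.17 to 0.33). The members and lists were chosen with earlier results of these data known. Named beside the members were up to 3 called genes of each list with the largest founder change, the 5 unfolded protein response controls, and the 5 genes with the highest Pearson r with Txnip. Gene positions came from GENCODE (GRCm38), and whether counting used strand is not given in the sources used here, so overlapping genes cannot be told apart.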

Additional observations from a re-analysis of the deposited data

How the results depend on the processing

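No value of a member changed direction with a call, and 0 reversed. Of 1830 values under other settings 1762 stayed the same, as did 2995 of 3060 with 1 library left out. For a single value, the same means its side of the threshold. For a count of members, it means a change of at most 1.5 fold. A large part of these values are of members not called within a genotype, so the totals say little about how stable the calls were. Values that were not called could change sign, as for Pkm in WSB (log2 change -0.02 to 0.06). In founders 2 members were lower, against 4 with median-of-ratios scaling, 4 without strains 129, A and NZO, and 5 without A control 1 and NZO TM 3 together (chosen after seeing the data); leaving out 1 library gave 2 to 5. With 1.5 fold also required, 1 member was higher and 0 lower in each set. The interaction in founders called 0 members, and 1 when TM was set against the median control. Within genotypes, without the trend 0 members were called in B6, CAST, NOD, WSB, xCAST and xNZO. In WSB edgeR, which was run without WSB TM 1, called 0. One fit over each set called 1 in A, 0 in B6, 1 in NZO, 1 in xNOD (Hk1) and 1 in xWSB (Hk2). At adjusted p below 0.05, 2 were called in NOD, 1 in NZO, 2 in xCAST and 1 in xNOD, and with median-of-ratios scaling 2 in xCAST. Leaving out 1 library gave 0 to 2 members in NOD, NZO and xCAST, and 0 to 1 in WSB, xNOD and xNZO. A group of 2 libraries was left with 1 in some of these fits, as in NOD without control 3 and xNOD without TM 2. Apart from these constructions, the cause was not tested.

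With the replicate block, 1 member (Txnip) was called in 129, 1 in NZO and 0 in xNZO, and the average change of Slc2a1 was no longer called (adjusted p = 0.019 in founders and 0.0243 in crosses). Same-numbered samples deviated together with r above 0.1 in 11 of 29 pairs (r -0.64 to 0.49), and in xWSB in all 3, where the block called 0 members as did the fit without it. Of 6 samples each, 0 in A, 3 in PWK, 1 in x129, 0 in xNZO and 4 in xWSB went best with their own number. In B6 and CAST the block could not be fitted. Few reads limit what can be said of Pdk1.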
